A study of Arabidopsis thaliana with 12 samples.

Results

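The S1 group of basic leucine zipper (bZIP) transcription factors of Arabidopsis thaliana has 5 genes, bZIP1 (AT5G49450), bZIP2 (AT2G18160), bZIP11 (AT4G34590), bZIP44 (AT1G75390) and bZIP53 (AT3G62420). They were taken by gene identifier, by a rule that used no measured value, and they are 5 of the 27655 genes counted. Earlier results of these data were known when they were chosen. All 5 had mRNA and footprint counts in each library. Low boron plants grew with 0.3 µM boric acid, Ctrl plants with 30 µM and high boron plants with 500 µM. All groups were wild type plants of ecotype Col-0, raised on MGRL medium that held 1.0% sucrose in each group. Whole shoots were harvested at 14 days, about 300 plants pooled per replicate, and mRNA and ribosome footprints were each sequenced from 2 libraries per group, 12 libraries in all.

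S1 factors are small bZIP proteins that bind DNA as dimers, and their preferred partners are the C group proteins bZIP9, bZIP10, bZIP25 and bZIP63. They act in the response of plants to low energy, downstream of the kinase SnRK1, and switch on genes of amino acid breakdown and carbohydrate release. The 5′ leader of each S1 mRNA holds a short upstream open reading frame (uORF) that encodes a conserved peptide, and sucrose acts through that peptide to stall ribosomes and repress translation of the main reading frame. In ribosome profiling, the stretches of mRNA covered by ribosomes are sequenced, and footprints per mRNA give a measure of how heavily a reading frame is translated. The deposited counts cover the main coding sequences, so footprints on the uORFs themselves were not analysed here.

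Total counts were 7563365 to 9256564 per mRNA library and 6903881 to 24206655 per footprint library, the deepest being low boron library 2. Each library detected 19748 to 21160 genes, and the 2 libraries of a group had Pearson r of 0.978 to 0.991 for log2 CPM across genes, which are not independent of one another. Levels are CPM, counts relative to the library total after TMM scaling, and libraries are called 2 and 3, as in the deposited tables. In tissue as mixed as a whole shoot, fewer cells of a type and less RNA per cell cannot be told apart. Root markers were near 0, with 5 genes summing to 0.642 to 1.81 CPM of mRNA and RHD6 at 0 counts in low boron and in Ctrl. Phloem markers overlapped between the groups in footprints (289 to 357 CPM at low boron, 313 to 417 CPM in Ctrl and 338 to 441 CPM at high boron, summed over 2 genes). In mRNA they summed to 327 to 368 CPM at low boron, 325 to 351 CPM in Ctrl and 357 to 388 CPM at high boron, above both Ctrl libraries. Of the 2, SUC2 was called in mRNA at low boron (0.25 ± 0.09, edgeR adjusted p = 0.0488). Footprints of the 2 guard cell markers summed to 11.0 to 13.0 CPM at low boron, 24.6 to 25.7 CPM in Ctrl and 21.5 to 25.8 CPM at high boron. Their mRNA summed to 33.4 to 33.8 CPM at low boron, 40.8 to 46.3 CPM in Ctrl and 50.7 to 51.5 CPM at high boron. mRNA of the 2 shoot meristem markers summed to 7.75 to 10.1, 13.3 to 15.7 and 11.2 to 11.5 CPM in the same order. The 4 leaf mesophyll markers summed to 11822 to 11872 CPM of mRNA at low boron, 15747 to 16298 CPM in Ctrl and 15399 to 15712 CPM at high boron. Against Ctrl, 3 of the 4 were lower in mRNA at low boron, and 1 of the 4, LHCB2.1, was higher at high boron (1185 and 1274 CPM, against 512 and 563 CPM in Ctrl; 1.19 ± 0.09 in mRNA, edgeR adjusted p = 3.46e-06, and 1.04 ± 0.23 in footprints, edgeR adjusted p = 0.0303). What part these marker shifts have in the results at low or high boron was not tested.

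Called changes were those of bZIP53, bZIP1 and bZIP2. At high boron bZIP53 footprints fell to 0.351 times the Ctrl level and its translation efficiency, footprints relative to mRNA, to 0.340 times, while the change in its mRNA was not called. The footprint call was lost in 2 of 14 alternatives and the translation efficiency call in 10 of 20. At low boron bZIP1 and bZIP53 mRNA rose to 1.57 and 1.54 times the Ctrl level, the bZIP1 call being lost in 2 of 14 alternatives. At high boron bZIP2 mRNA rose to 1.48 times the Ctrl level. No change of bZIP11 passed the test, and bZIP44 had too few footprints to be tested.

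**Figure D1:**
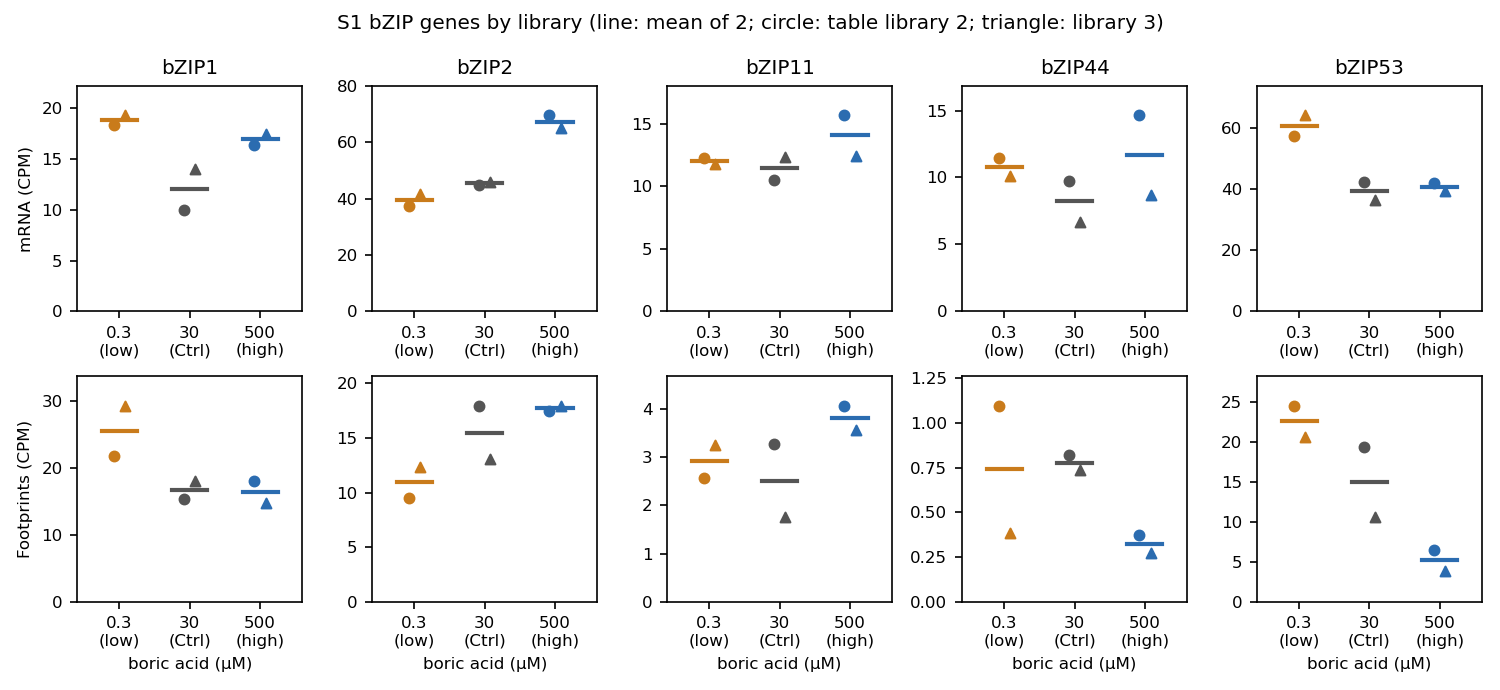
Level of each S1 bZIP gene (columns) in CPM, for mRNA (top) and footprints (bottom), at 0.3, 30 and 500 µM boric acid; each panel has its own axis from 0, points are single libraries and lines the mean of 2. bZIP53 footprints stood at 6.51 and 3.84 CPM at high boron, against 19.4 and 10.6 CPM in Ctrl, while its mRNA stood at 42.1 and 39.5 CPM at high boron, against 42.4 and 36.5 CPM in Ctrl.

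bZIP53, which with C group partners activates proline dehydrogenase and seed maturation genes, changed in mRNA at low boron and in footprints at high boron. Its mRNA was at 57.5 and 64.1 CPM at low boron, 42.4 and 36.5 CPM in Ctrl and 42.1 and 39.5 CPM at high boron. Both low boron libraries were above all 4 others, and the high boron libraries lay within the Ctrl range. How many of all genes separate by library in this way was not counted, here or for the members below. The log2 change was 0.62 ± 0.10 (± SE, n = 2 libraries per group) for low boron minus Ctrl (edgeR quasi-likelihood test, Benjamini-Hochberg adjusted p = 0.000255). Between high boron and Ctrl it was 0.05 ± 0.11 (edgeR adjusted p = 0.852), and for high minus low boron -0.58 ± 0.10 (edgeR adjusted p = 0.000348). Both called mRNA changes of bZIP53 were kept in each of 14 alternative analyses.

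Footprints of bZIP53 were at 24.5 and 20.6 CPM at low boron, 19.4 and 10.6 CPM in Ctrl and 6.51 and 3.84 CPM at high boron. Both high boron libraries were below all others, while the 2 Ctrl libraries differed from each other more than either differed from its nearest low boron or high boron neighbour. These levels rest on 88 and 28 counts at high boron, and on 237 and 72 counts in Ctrl. Footprints fell at high boron by 1.51 ± 0.30 on the log2 scale against Ctrl (edgeR adjusted p = 0.0146) and by 2.08 ± 0.29 against low boron (edgeR adjusted p = 0.000105). For low boron minus Ctrl the change was 0.57 ± 0.26 (edgeR adjusted p = 0.172), which passed in 3 of 14 alternatives, with no filter (edgeR adjusted p = 0.0475), with the library number as a block (edgeR adjusted p = 0.0433) and without Ctrl library 2 (1.11, edgeR adjusted p = 0.0446). The fall against low boron was kept in each of 14 alternatives. The fall against Ctrl was lost without Ctrl library 2 (-0.99, edgeR adjusted p = 0.291) and without high boron library 3 (-1.26, edgeR adjusted p = 0.0751).

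Translation efficiency was compared through the interaction term of the joint fit of both assays. For bZIP53 it fell at high boron by 1.56 ± 0.33 on the log2 scale against Ctrl (edgeR adjusted p = 0.0345) and by 1.49 ± 0.32 against low boron (edgeR adjusted p = 0.0222). The low boron value differed from Ctrl by -0.07 ± 0.30 (edgeR adjusted p = 0.982). Ranked by p among the 17306 genes tested, bZIP53 was number 108 for high boron minus Ctrl and number 182 for high minus low boron. Against Ctrl the log2 change ranged between -2.06 and -1.01 over 20 alternatives and lost its call in 10 of them, among them limma voom (adjusted p = 0.0635), the fit of 2 groups alone (edgeR adjusted p = 0.0898), and the fits without footprint library 2 of Ctrl (-1.01, edgeR adjusted p = 0.296) or footprint library 3 of high boron (-1.32, edgeR adjusted p = 0.0999). It was also lost without any 1 of the 6 mRNA libraries, at edgeR adjusted p of 0.0647 to 0.18. Against low boron it was lost in 6 of 20, each of them leaving out 1 low boron or high boron library (edgeR adjusted p of 0.0633 to 0.144).

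bZIP1, a factor known from sugar starvation and salt stress that activates the asparagine synthetase gene ASN1, rose in mRNA at low boron. Its mRNA was at 18.3 and 19.3 CPM at low boron, 9.96 and 14.1 CPM in Ctrl and 16.4 and 17.4 CPM at high boron. Both boron treatments were above both Ctrl libraries, and the Ctrl libraries were farther apart than those of either treatment. The log2 change was 0.65 ± 0.16 for low boron minus Ctrl (edgeR adjusted p = 0.00696), and that call was lost without low boron library 3 (edgeR adjusted p = 0.0609) or Ctrl library 2 (0.42, edgeR adjusted p = 0.0707). The high boron minus Ctrl change was 0.50 ± 0.17 (edgeR adjusted p = 0.0825), which passed with no filter on low counts (edgeR adjusted p = 0.0305) and without Ctrl library 3 (0.77, edgeR adjusted p = 0.00704). For high minus low boron it was -0.15 ± 0.16 (edgeR adjusted p = 0.481).

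Footprints of bZIP1 were at 21.8 and 29.4 CPM at low boron, 15.4 and 18.0 CPM in Ctrl and 18.1 and 14.8 CPM at high boron. The low boron libraries were above all others, and those of high boron and Ctrl overlapped. Footprints were lower by 0.61 ± 0.21 on the log2 scale at high than at low boron (edgeR adjusted p = 0.0463), a call lost in 6 of 14 alternatives, among them DESeq2 (adjusted p = 0.0668), limma voom (adjusted p = 0.0583) and the fit without low boron library 3 (-0.40, edgeR adjusted p = 0.407). For low boron minus Ctrl the change was 0.61 ± 0.21 (edgeR adjusted p = 0.0612), which passed in 4 of 14 alternatives, the lowest adjusted p being 0.0264 with no filter. The high boron minus Ctrl change was -0.00 ± 0.22 (edgeR adjusted p = 1). Translation efficiency of bZIP1 was not called, at -0.04 ± 0.28 for low boron minus Ctrl, -0.49 ± 0.28 for high boron minus Ctrl and -0.45 ± 0.27 for high minus low boron (edgeR adjusted p of 0.989, 0.702 and 0.617).

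bZIP2, bZIP11 and bZIP44 are the members closest to one another in sequence. bZIP2, an activator of proline dehydrogenase, had its highest mRNA at high boron. Its mRNA was at 37.4 and 41.6 CPM at low boron, 45.0 and 46.0 CPM in Ctrl and 69.6 and 65.1 CPM at high boron. The 3 groups did not overlap and stood in the order of the boron supply. The log2 change was 0.56 ± 0.09 for high boron minus Ctrl (edgeR adjusted p = 0.00117) and 0.77 ± 0.09 for high minus low boron (edgeR adjusted p = 1.09e-05), both kept in each of 14 alternatives. For low boron minus Ctrl it was -0.20 ± 0.10 (edgeR adjusted p = 0.117).

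Footprints of bZIP2 were at 9.48 and 12.4 CPM at low boron, 17.9 and 13.1 CPM in Ctrl and 17.5 and 18.0 CPM at high boron. The low boron libraries were below all others, and 1 Ctrl library lay between those of high boron. Footprints were higher by 0.71 ± 0.22 on the log2 scale at high than at low boron (edgeR adjusted p = 0.0302). That call was lost in 5 of 14 alternatives, with DESeq2 (adjusted p = 0.0557) and without any 1 of the 4 libraries compared, up to an edgeR adjusted p of 0.291 without low boron library 2. The changes against Ctrl were -0.54 ± 0.22 at low boron (edgeR adjusted p = 0.121) and 0.18 ± 0.22 at high boron (edgeR adjusted p = 0.87). Translation efficiency of bZIP2 changed by -0.35 ± 0.23 for low boron minus Ctrl, -0.40 ± 0.23 for high boron minus Ctrl and -0.05 ± 0.23 for high minus low boron, none of them called (edgeR adjusted p of 0.824, 0.698 and 0.961).

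bZIP11, the member in which repression of translation by sucrose was first worked out, passed no test. Its mRNA was at 12.2 and 11.8 CPM at low boron, 10.5 and 12.3 CPM in Ctrl and 15.7 and 12.5 CPM at high boron. The high boron libraries lay above the others by a small margin. Footprints were at 2.57 and 3.26 CPM at low boron, 3.27 and 1.76 CPM in Ctrl and 4.07 and 3.56 CPM at high boron, from 61 and 34, 40 and 12, and 55 and 26 counts. Against Ctrl the log2 change in mRNA was 0.07 ± 0.17 at low boron (edgeR adjusted p = 0.787) and 0.29 ± 0.17 at high boron (edgeR adjusted p = 0.346). In footprints it was 0.12 ± 0.37 at low boron (edgeR adjusted p = 0.877) and 0.55 ± 0.37 at high boron (edgeR adjusted p = 0.688). High minus low boron gave 0.22 ± 0.17 in mRNA (edgeR adjusted p = 0.324) and 0.43 ± 0.35 in footprints (edgeR adjusted p = 0.442). Its changes in translation efficiency were 0.01 ± 0.37, 0.24 ± 0.37 and 0.22 ± 0.35 for low boron minus Ctrl, high boron minus Ctrl and high minus low boron (edgeR adjusted p of 0.997, 0.923 and 0.871), with errors wider than those of bZIP53.

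bZIP44, reported to act in seed germination, had mRNA at 11.4 and 10.1 CPM at low boron, 9.74 and 6.69 CPM in Ctrl and 14.6 and 8.66 CPM at high boron. The high boron libraries overlapped both other groups, and no mRNA change was called (0.39 ± 0.25, 0.48 ± 0.25 and 0.09 ± 0.24 on the log2 scale for low boron minus Ctrl, high boron minus Ctrl and high minus low boron, edgeR adjusted p of 0.255, 0.274 and 0.784). Its coding sequence drew 26 and 4 footprints at low boron, 10 and 5 in Ctrl and 5 and 2 at high boron, and it failed the filter on low counts. The sums of 30, 15 and 7 footprints had exact Poisson 95% intervals of 20.2 to 42.8 at low boron, 8.40 to 24.7 in Ctrl and 2.81 to 14.4 at high boron, which cover counting error only. Without the filter, its footprints changed by -1.22 ± 0.89 (edgeR adjusted p = 0.781) and its translation efficiency by -1.70 ± 0.77 (edgeR adjusted p = 0.651) for high boron minus Ctrl. The footprint changes for low boron minus Ctrl and for high minus low boron were 0.07 ± 0.71 and -1.29 ± 0.82 (edgeR adjusted p of 0.985 and 0.318), so no direction could be read at this depth.

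**Figure D2:**
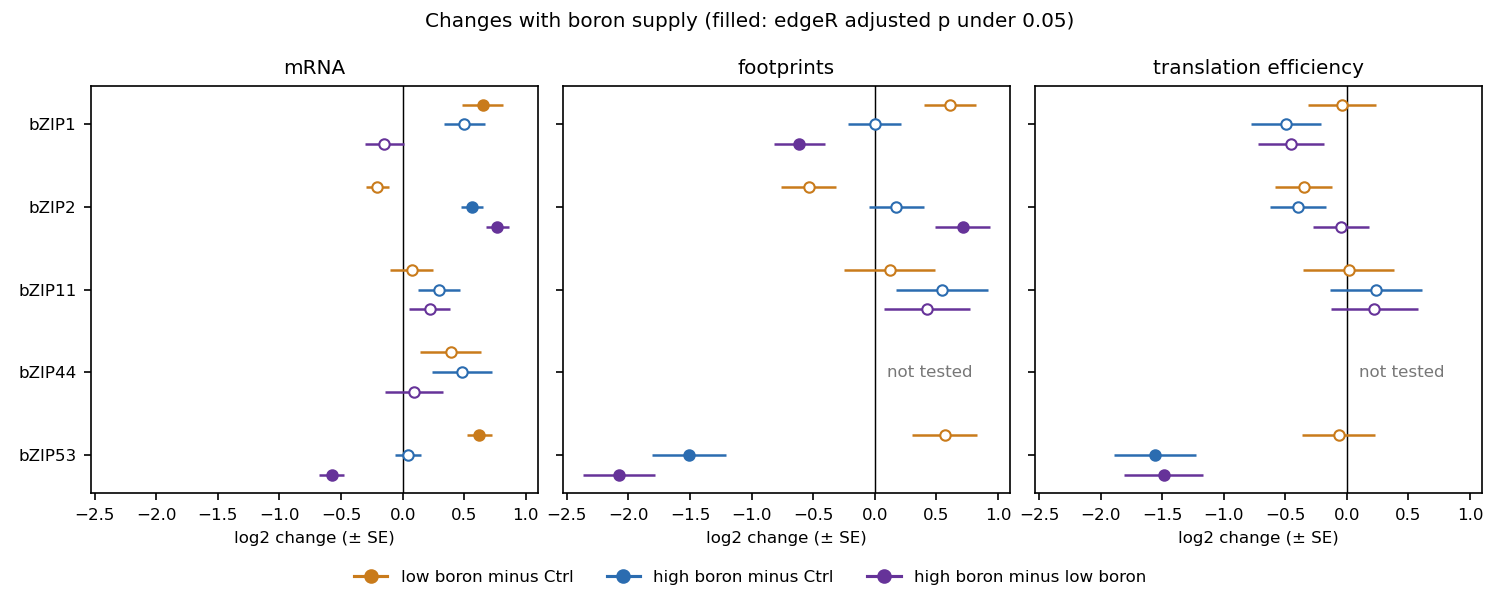
Log2 change ± SE of mRNA, footprints and translation efficiency for each S1 bZIP gene and comparison; filled points have an edgeR adjusted p under 0.05. bZIP53 lies at -1.51 in footprints and -1.56 in translation efficiency for high boron minus Ctrl, and bZIP2 at 0.56 in mRNA; bZIP44 was tested in mRNA only.

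Counted together, 2 of 5 members rose in mRNA and 0 fell for low boron minus Ctrl, where 33.3% of all genes tested were called and 19.5% rose. For high boron minus Ctrl 1 of 5 rose in mRNA and 0 fell, against 9.06% of all genes called and 4.5% higher. For high minus low boron 1 of 5 was higher and 1 lower, against 42.4% called, 19.3% higher and 23.1% lower. The members' shares were thus near those of all genes in 2 of the 3 comparisons, and with 5 genes the share for high boron minus Ctrl rests on bZIP2 alone. The median log2 change of the 5 in mRNA was 0.39, 0.48 and 0.09 for low boron minus Ctrl, high boron minus Ctrl and high minus low boron, beside 0.02, -0.01 and -0.00 over all genes. These comparisons share libraries with one another and are not independent.

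In footprints, 0 of the 4 tested members were called for low boron minus Ctrl with edgeR, against 15% of all genes (8.05% higher and 6.92% lower), while 3 of 4 had an unadjusted p under 0.05 and 0 were called with DESeq2 or limma voom. For high boron minus Ctrl 1 of 4 fell, bZIP53, against 1.98% of all genes called, 0.463% higher and 1.51% lower. For high minus low boron 1 of 4 was higher and 2 were lower, against 20.7% called, 9.34% higher and 11.3% lower. In translation efficiency 0 of 4 were called for low boron minus Ctrl with edgeR, where 0.0231% of all genes were, and 0 had an unadjusted p under 0.05 or a call with DESeq2 or limma voom. bZIP53 was the 1 of 4 that fell for high boron minus Ctrl, against 0.734% of all genes called, 0.0347% higher and 0.699% lower. It was also the 1 of 4 that was lower for high minus low boron, against 1.59% called and 1.24% lower. The median change in translation efficiency over the 4 members was -0.05, -0.45 and -0.25 in these comparisons, beside -0.06, 0.03 and 0.11 over all genes.

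Footprints per mRNA, the ratio of the 2 CPM values, placed the members far apart from one another. In Ctrl the ratio was 1.39 for bZIP1, 0.379 for bZIP53, 0.340 for bZIP2, 0.220 for bZIP11 and 0.0944 for bZIP44. The median over 17306 genes was 0.752, so bZIP1 stood above the typical gene and the other 4 below it. Over the 4 pairings of a footprint with an mRNA library the ratio ranged between 1.09 and 1.81 for bZIP1, 0.249 and 0.530 for bZIP53, 0.284 and 0.398 for bZIP2, 0.143 and 0.311 for bZIP11, and 0.0753 and 0.122 for bZIP44. The ranges of bZIP53 and bZIP2 overlapped, as did those of bZIP2 and bZIP11, while bZIP1 stood above bZIP53 and bZIP44 below bZIP11 in every pairing. As percentiles of all genes in Ctrl, the ratios were at 83.6 for bZIP1, 17.6 for bZIP53, 14.6 for bZIP2, 6.63 for bZIP11 and 1.11 for bZIP44.

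Across the boron supplies this order changed most for bZIP53. Its ratio was 0.371 at low boron, 0.379 in Ctrl and 0.127 at high boron, at percentiles 16.4, 17.6 and 2.59. All 4 pairings at high boron (0.0911 to 0.165) were below all pairings in Ctrl (0.249 to 0.530) and at low boron (0.322 to 0.427). That moved bZIP53 below bZIP2 and bZIP11 at high boron, where their ratios were 0.263 and 0.272. bZIP2 and bZIP11 also changed places there, with overlapping ranges (0.251 to 0.276 and 0.227 to 0.327). The bZIP1 ratio was 1.36 at low boron, 1.39 in Ctrl and 0.973 at high boron, and its high boron pairings (0.849 to 1.10) met the lowest of Ctrl (1.09). bZIP2 stood at 0.277, 0.340 and 0.263 and bZIP11 at 0.243, 0.220 and 0.272 for low boron, Ctrl and high boron, with overlapping ranges between Ctrl and both treatments except between bZIP2 at high boron (0.251 to 0.276) and in Ctrl (0.284 to 0.398). bZIP44 stood at 0.0686, 0.0944 and 0.0277, the last of them resting on 7 footprints.

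**Figure D3:**
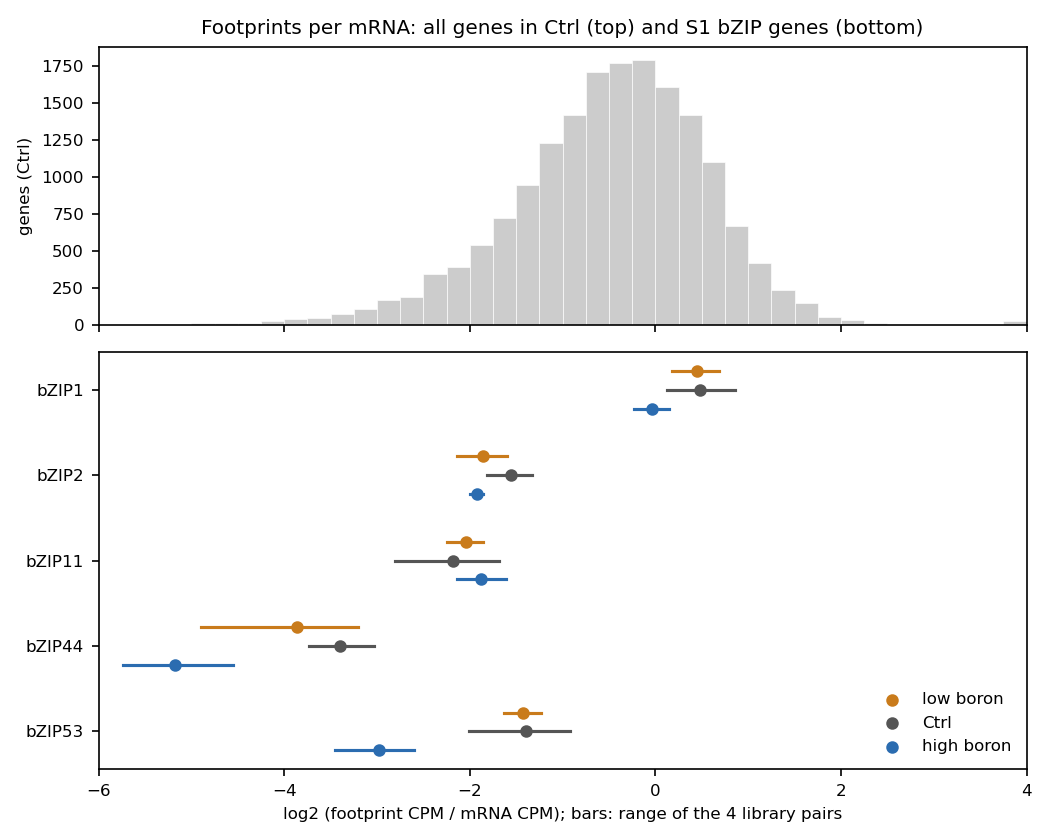
Top, number of genes by log2 footprints per mRNA in Ctrl, with ratios beyond the axis counted in the outermost bins. Bottom, the same ratio for each S1 bZIP gene at low boron, in Ctrl and at high boron, with bars over the 4 library pairings; bZIP1 lies to the right of the other 4, and bZIP53 at high boron (ratio 0.127) lies left of its Ctrl value (0.379).

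The C group partners were all tested in both assays, and 2 of 4 were called in mRNA for low boron minus Ctrl (1 higher and 1 lower), a share near the 33.3% of all genes called (19.5% higher and 13.8% lower). mRNA of bZIP9 (AT5G24800) was at 37.7 and 36.7 CPM at low boron, against 69.8 and 59.7 CPM in Ctrl, a log2 change of -0.80 ± 0.11 (edgeR adjusted p = 4.49e-05). mRNA of bZIP25 (AT3G54620) rose at low boron by 0.47 ± 0.08 (edgeR adjusted p = 0.000305). Both differed the opposite way for high minus low boron (0.78 ± 0.11 and -0.54 ± 0.08), where bZIP63 (AT5G28770) was also higher by 0.37 ± 0.09 (edgeR adjusted p = 0.00495), and that call did not hold without low boron library 3. For high boron minus Ctrl 0 of 4 were called in mRNA with edgeR, against 9.06% of all genes called. Of the 4, 0 had an unadjusted p under 0.05 or a call with DESeq2 or limma voom.

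In footprints 0 of 4 C group genes were called with the main edgeR fit in any comparison. For low boron minus Ctrl, high boron minus Ctrl and high minus low boron, 15%, 1.98% and 20.7% of all genes were called. Of the C group genes, 1, 0 and 1 had an unadjusted p under 0.05 in these comparisons. limma voom called 1 C group gene, bZIP25, lower for high minus low boron (-0.47, adjusted p = 0.0488), and DESeq2 called 0. Footprints of bZIP25 were also called lower there by edgeR with DESeq2 size factors (adjusted p = 0.0487) and with the strict filter (adjusted p = 0.0416). The same held without organelle-encoded genes, in the 2-group fit and with the library number as a block (edgeR adjusted p of 0.0418 to 0.0423). Translation efficiency of bZIP9 was lower at high than at low boron by 1.19 ± 0.23 on the log2 scale (edgeR adjusted p = 0.011), a call lost in 4 alternatives that each leave out 1 library. Its footprints per mRNA were 0.193 at low boron, 0.0775 in Ctrl and 0.0846 at high boron, so the low boron value stood apart. For low boron minus Ctrl DESeq2 called a rise of 1.31 (adjusted p = 0.0276), which edgeR did not call. bZIP9 had 0.0775 footprints per mRNA in Ctrl, at percentile 0.763 of all genes and lower than any S1 member, while bZIP10, bZIP25 and bZIP63 stood at 0.590, 0.554 and 1.36. Of the 12 S group bZIP genes outside S1, 4 could be tested in mRNA. For low boron minus Ctrl 1 of 4 was called, a share near the 33.3% of all genes called. It was bZIP3 (AT5G15830), which rose by 0.91 ± 0.30 (edgeR adjusted p = 0.0308). This call did not hold with DESeq2, nor without low boron library 2, low boron library 3 or Ctrl library 3.

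SnRK1 is the kinase that signals low energy, and trehalose phosphate, made by synthases of the TPS class, inhibits it. Of 14 such genes, 6 rose and 1 fell in mRNA for low boron minus Ctrl, with a median log2 change of 0.20 beside 0.02 over all genes, where 19.5% rose and 13.8% fell. TPS11 (AT2G18700), a TPS protein of the class without known synthase activity, was at 163 and 159 CPM at low boron, against 63.7 and 63.4 CPM in Ctrl (1.34 ± 0.08, edgeR adjusted p = 2.03e-08), and its footprints rose by 1.57 ± 0.18 (edgeR adjusted p = 4.21e-05). TPS10 and TPS8 rose in mRNA by 0.63 ± 0.11 and 0.42 ± 0.09, and TPS1, the synthase that makes trehalose phosphate, fell by 0.34 ± 0.09 (edgeR adjusted p = 0.00621), which no longer passed when low boron library 3 was left out. The count of 6 that rose was 3 with DESeq2 and without low boron library 3. In footprints 5 rose and 0 fell, against 8.05% of all genes higher and 6.92% lower, a count of 2 without low boron library 3 or Ctrl library 3. With high boron minus Ctrl, 3 rose and 0 fell in mRNA, with a median of 0.17 beside -0.01 and 4.5% of all genes higher, and the count was 1 with DESeq2 and without any 1 of the mRNA libraries except Ctrl library 3.

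SNF4 (AT1G09020), a regulatory subunit of SnRK1, changed as bZIP53 did in translation efficiency but with a rise in mRNA. Its mRNA was at 67.9 and 65.5 CPM at high boron, against 40.3 and 45.2 CPM in Ctrl (0.64 ± 0.09, edgeR adjusted p = 0.000425). Its footprints were at 28.9 and 31.0 CPM at high boron, against 41.0 and 44.6 CPM in Ctrl, a change that was not called (-0.51 ± 0.17, edgeR adjusted p = 0.197). Its translation efficiency fell by 1.16 ± 0.18 against Ctrl (edgeR adjusted p = 0.00382) and was lower by 1.07 ± 0.18 at high than at low boron (edgeR adjusted p = 0.00331). SNF4 was the only one of the 14 called in translation efficiency with edgeR. Of all genes, 0.734% were called for high boron minus Ctrl and 1.59% for high minus low boron.

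Genes reported as targets of S1 factors are those of amino acid breakdown, starvation and auxin response. Of 14 such genes, 11 rose and 1 fell in mRNA for low boron minus Ctrl, with a median log2 change of 1.27 beside 0.02 over all genes and 19.5% of all genes rising. The count that rose was 10 with DESeq2, which did not call SEN5 (0.47, adjusted p = 0.226), and 11 with limma voom. The SEN5 call also did not hold without low boron library 2, low boron library 3 or Ctrl library 2. ASN1 (AT3G47340), the asparagine synthetase gene, was at 829 and 992 CPM of mRNA at low boron, against 71.8 and 117 CPM in Ctrl (3.27 ± 0.17, edgeR adjusted p = 5.47e-09). BCAT2, an aminotransferase of branched-chain amino acids, rose by 2.97 ± 0.17 (edgeR adjusted p = 1.87e-08), and MIOX4, an inositol oxygenase, by 2.79 ± 0.25 (edgeR adjusted p = 1.18e-06). The proline dehydrogenase genes PRODH1 and PRODH2 rose by 1.04 ± 0.08 and 1.52 ± 0.25. The 1 that fell was IAA3, a repressor of auxin response, by 0.90 ± 0.17 (edgeR adjusted p = 0.000991), while TPPF and GH3.3 were not called. In footprints 10 rose and 1 fell, with a median of 1.10 beside 0.00 over all genes, of which 8.05% rose and 6.92% fell, and ASN1 reached 1324 and 1721 CPM at low boron, against 152 and 118 CPM in Ctrl (3.49 ± 0.22, edgeR adjusted p = 1.56e-07). The single fall, of IAA3 footprints (-1.11 ± 0.26, edgeR adjusted p = 0.00835), was lost without low boron library 3 or Ctrl library 2. The footprint rises of MCCA and DIN10 lost their calls without low boron library 3, and those of PRODH1 and DIN10 without Ctrl library 2. None of the 14 was called in translation efficiency for low boron minus Ctrl with edgeR, where 0.0231% of all genes were. Of the 14, 0 had an unadjusted p under 0.05 or a call with DESeq2 or limma voom.

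For high boron minus Ctrl 5 of the 14 targets fell and 1 rose in mRNA, with a median of -0.32 beside -0.01 over all genes, of which 4.55% fell and 4.5% rose. PRODH1 was at 231 and 226 CPM at high boron, against 356 and 334 CPM in Ctrl (-0.59 ± 0.08, edgeR adjusted p = 0.000389), and MIOX2 fell by 0.51 ± 0.09 (edgeR adjusted p = 0.00236). The fall of ASN1 mRNA (-0.86 ± 0.17, edgeR adjusted p = 0.00561) was lost with DESeq2 (adjusted p = 0.0858) and without high boron library 2 (edgeR adjusted p = 0.0873). The falls of BCAT2 and MIOX4 and the rise of TAT7 were each lost in 4 or 5 alternatives, and the count of falls was 3 with DESeq2 and limma voom and 2 without high boron library 2. In footprints 0 of 14 were called for high boron minus Ctrl with edgeR, DESeq2 or limma voom, where edgeR called 1.98% of all genes. Of the 14, 5 had an unadjusted p under 0.05. In translation efficiency edgeR called 0 of 14 for high boron minus Ctrl (0.734% of all genes), with a median of 0.39 beside 0.03. DESeq2 called a rise of ASN1 there (1.01, adjusted p = 0.0388). For high minus low boron 1 of 14, SEN1, was higher (0.352% of all genes), with a median of 0.43 beside 0.11. The SEN1 call was lost with DESeq2 (adjusted p = 0.111) and in fits that leave out 1 low or high boron library. The list was drawn from published reports, but earlier results of these data were known, so the choice was not blind to these libraries. Whether S1 proteins acted on these genes here was not tested. The mesophyll markers that moved at low boron are given above (3 of 4 lower in mRNA), and their part in these changes was not tested.

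**Figure D4:**
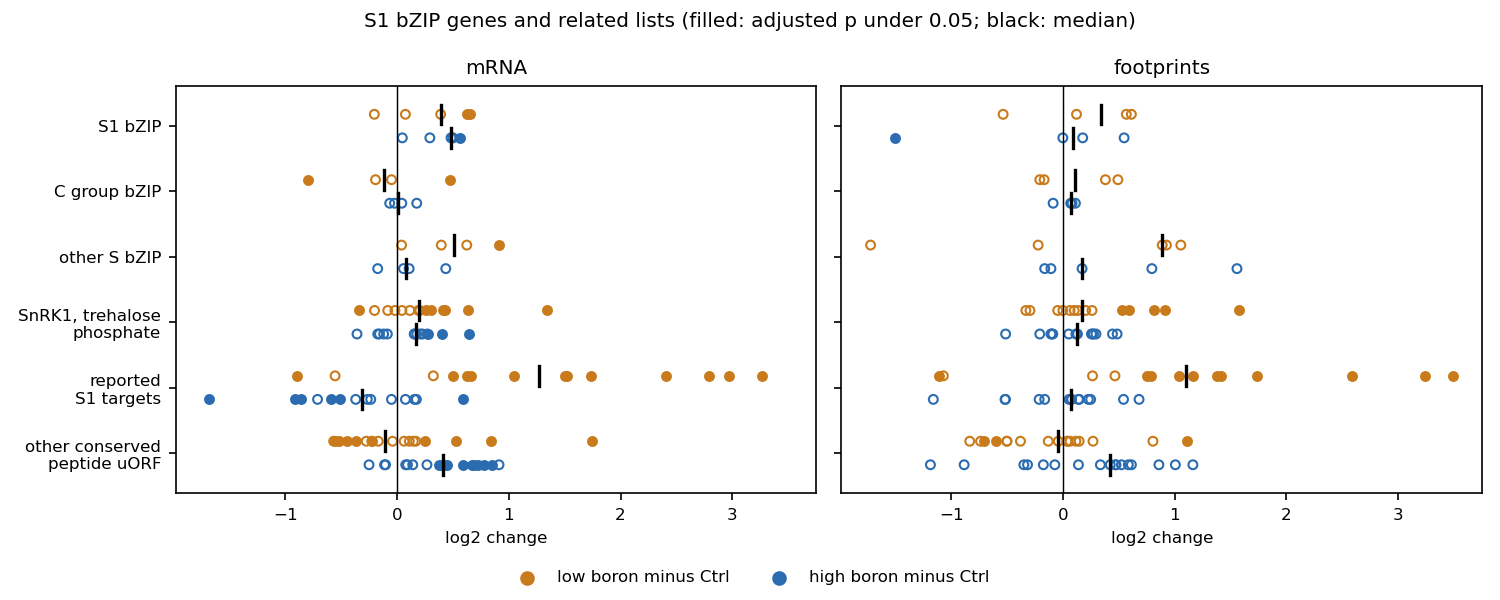
Log2 change of single genes in mRNA (left) and footprints (right) for the S1 bZIP genes and the related lists, low boron minus Ctrl above high boron minus Ctrl; filled points have an edgeR adjusted p under 0.05 and black marks are list medians. Most reported targets lie right of 0 at low boron, with list medians of 1.27 in mRNA and 1.10 in footprints, while IAA3 and TPPF lie left of 0. The median of the S1 genes lies nearer to 0.

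The other genes listed here with a uORF that encodes a conserved peptide include the SAC51 family of transcription factors, the S-adenosylmethionine decarboxylases (SAMDC) of polyamine synthesis and the NMT methyltransferases of choline synthesis. In Ctrl 15 of the 17 with enough counts had fewer footprints per mRNA than the median gene. The median ratio was 0.360 for the 4 S1 members tested, 0.111 for these 17 and 0.752 for all genes. The lowest ratio was 0.0212 for SACL3 and the highest 1.70 for NMT3, which with NMT2 stood above the median gene, as bZIP1 did among the S1 genes. bZIP53 at high boron (0.127) had a ratio between those of SAMDC1 (0.110) and PIA2 (0.133) in Ctrl.

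In mRNA, 10 of 18 of these uORF genes rose and 0 fell for high boron minus Ctrl, with a median of 0.41 beside -0.01 and 4.5% of all genes rising; the count was 7 with DESeq2 and without high boron library 2. NMT3 rose by 0.85 ± 0.08 (edgeR adjusted p = 1.55e-05), SAMDC3 by 0.78 ± 0.14 (edgeR adjusted p = 0.00268) and EMB1444 by 0.72 ± 0.09 (edgeR adjusted p = 9.13e-05). Low boron minus Ctrl had 4 that rose and 5 that fell, against 19.5% of all genes higher and 13.8% lower. Both counts were lower without low boron library 3 and without low boron library 2. HSFB1, a heat shock factor gene, rose at low boron by 1.74 ± 0.11 (edgeR adjusted p = 4.16e-08). In footprints 0 of 17 were called for high boron minus Ctrl with edgeR, DESeq2 or limma voom, where edgeR called 1.98% of all genes. Of the 17, 6 had an unadjusted p under 0.05, and the median was 0.42 beside 0.01. In translation efficiency 1 of 17 fell for high boron minus Ctrl, against 0.699% of all genes lower. It was PIA2 (-1.45 ± 0.29, edgeR adjusted p = 0.024), a call lost in 6 alternatives. bZIP53 was the only one of the 4 S1 genes tested with a called fall in translation efficiency at high boron, bZIP44 having too few footprints to be tested. The difference between bZIP53 and the other uORF genes was not tested.

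**Figure D5:**
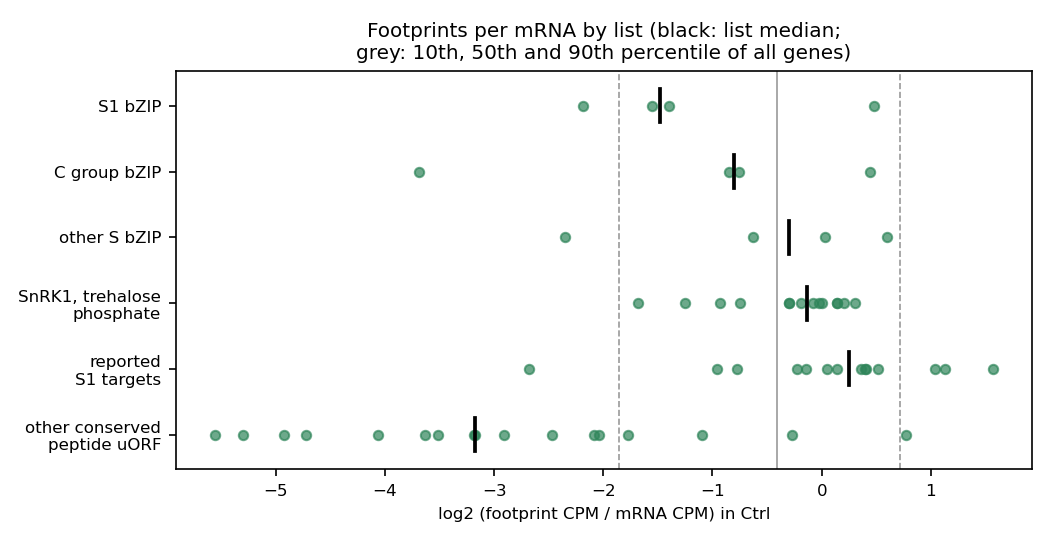
Log2 footprints per mRNA in Ctrl for single genes of each list, with list medians in black and the 10th, 50th and 90th percentiles of all genes as grey lines. The conserved peptide uORF genes reach farthest left, with a median ratio of 0.111, and 3 of the 4 S1 genes that passed the filter in both assays lie left of the median of all genes.

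The genes whose pattern over the 12 libraries was most like that of a called member were found by Pearson r of log2 CPM, centred within each assay, among 11247 genes of sufficient level. For bZIP53 they were AT2G46420 (r = 0.978), PAH2 (AT5G42870, r = 0.957) and VPS34 (AT1G60490, r = 0.956). For bZIP1 they were RAB8 (AT3G53610, r = 0.953), MSS3 (AT2G43290, r = 0.931) and SCR (AT3G54220, r = 0.930). For bZIP2 they were KIN2 (AT5G15970, r = 0.962), RL4 (AT2G18328, r = 0.948) and RXF12 (AT1G58370, r = 0.943). These are the highest of many values, the points share libraries and depth, and no p is given.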

How the data were processed

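The authors deposited raw counts per gene over the coding sequence, 1 table for mRNA and 1 for footprints. Bowtie2 and SAMtools are named in the submitters' processing notes; versions, genome build, annotation and use of strand are not given in the sources used here, so no coordinates or sequences are printed. Columns were assigned to groups by name, as their numbers (2 and 3) differ from those in the labels. The members and lists were chosen with earlier results of these data known.

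mRNA and footprints were each tested with edgeR 4.0.16 (R 4.3.3): TMM scaling, filterByExpr (18403 and 17697 genes left), the 3 groups in 1 fit, the quasi-likelihood test, and Benjamini-Hochberg adjustment over all genes with a threshold of 0.05. For translation efficiency, 1 fit over all 12 libraries tested whether the boron change differed between the assays (17306 genes). The SE is the absolute log2 change divided by the square root of F. edgeR's common coefficient of variation came to 6.92% (mRNA), 14.9% (footprints) and 11.1% (both assays together). The p-values rest on the spread between the 2 libraries of a group, pooled over the groups in the fit and moderated across genes. In the translation efficiency fit this spread is also pooled over both assays, so it is not that of footprints alone.

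Alternatives were DESeq2 size factors in edgeR, DESeq2 1.42.0, limma 3.58.1 voom, no filter, a strict filter (each group averaging 50 counts or more), leaving out organelle-encoded genes, a fit of 2 groups alone, the library number as a block, and leaving out each library. Named were all members, then list genes with an adjusted p under 0.05 in any comparison, the largest changes first, the markers, and the 3 genes most like each called member, among genes with a mean log2 CPM of at least 3 in both assays. All 82 listed genes had a row in the RefSeq gene table (assembly TAIR10.1), which lists bZIP11 as GBF6. It is not known how the counting treated reads shared by near-identical genes.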

Additional observations from a re-analysis of the deposited data

How the results depend on the processing

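Over 39 member results and 612 alternative values, 31 calls were lost, 9 gained and 0 reversed. Members called in footprints for high minus low boron were 1 with DESeq2 in place of 3. For low boron minus Ctrl they were 2 with no filter, 1 without organelle-encoded genes and 2 with the library number as a block, in place of 0. Members called in mRNA for high boron minus Ctrl were 2 with no filter in place of 1, and members called in translation efficiency for high boron minus Ctrl were 0 with limma voom and in the 2-group fit in place of 1. Leaving out single libraries gave 1 to 2 members called in mRNA for low boron minus Ctrl and for high boron minus Ctrl. In footprints it gave 0 to 1 for low boron minus Ctrl and for high boron minus Ctrl, and 1 to 3 for high minus low boron. In translation efficiency it gave 0 to 1 for high boron minus Ctrl and for high minus low boron.

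Over all genes, DESeq2 called 3938 in place of 6120 in mRNA for low boron minus Ctrl and 927 in place of 1667 for high boron minus Ctrl. In footprints for high boron minus Ctrl no filter gave 668 and the strict filter 209, in place of 350. In translation efficiency the 2-group fit gave 64 in place of 127 for high boron minus Ctrl. For low boron minus Ctrl the counts were 12 with DESeq2, 2 with voom, the 2-group fit or the block and 1 with the strict filter, in place of 4. Single libraries left out gave 3731 to 6102 genes in mRNA for low boron minus Ctrl and 784 to 1894 for high boron minus Ctrl. In footprints they gave 922 to 2924 for low boron minus Ctrl, 131 to 310 for high boron minus Ctrl and 1869 to 3939 for high minus low boron. In translation efficiency they gave 0 to 9, 36 to 206 and 100 to 370 genes in those comparisons. The cause was not tested; leaving out a library leaves a group with 1, assumed to vary like the others.

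Equal library numbers were not treated as pairs between boron groups, since deviations of equal-numbered libraries correlated at -0.02 to 0.06 in mRNA and -0.01 to 0.16 in footprints. Whether equal-numbered mRNA and footprint libraries of a group are paired was not checked, and the translation efficiency fit took them as independent. With the number as a replicate block, 3208, 497 and 4182 genes were called in footprints for low boron minus Ctrl, high boron minus Ctrl and high minus low boron. Footprint depth limits bZIP44 and bZIP11 most. Levels per coding length were planned but not run, as no lengths of the files' annotation were at hand.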
